A study of Mus musculus with 6 samples.

Results

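The genes described here are 7 members of the mouse oligoadenylate synthetase (OAS) family, Oas1a, Oas1b, Oas1g, Oas2, Oas3, Oasl1 and Oasl2. They were chosen by gene symbol, through the gene identifiers of the platform annotation, and are 7 of 19057 genes with at least 1 probe on the array. Together they have 17 of its 45281 probes. Oas1g has 5 probes, Oasl1 and Oasl2 have 3 each, Oas1b and Oas3 have 2 each, and Oas1a and Oas2 have 1 each. Expression was measured as Illumina bead array signals in MC38 cells, a colon carcinoma line of C57Bl/6 mice. Control cells were kept in normal growth medium, unstimulated cells spent 16 h in reduced serum without S100A8/A9, and stimulated cells received 10 µg/mL S100A8/A9 over 6 h following 16 h of the same starvation, with 2 arrays in each of the 3 groups. S100A8/A9 is a calcium-binding protein pair released by neutrophils and monocytes that signals through the receptors encoded by Tlr4 and Ager. Whether unstimulated cells were also cultured for those 6 h is not stated in the labels. If they were not, longer culture and S100A8/A9 cannot be told apart. The codes of all 6 arrays share 1 number and end in the letters A to F, with each group on neighbouring letters. The labels do not say what the codes mean. If they give chip and position, chip position and group cannot be told apart.

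OAS enzymes bind double-stranded RNA and then join ATP into short adenylate chains. These chains are a second messenger of the antiviral response. The genes are textbook interferon-stimulated genes: interferon acts through a transcription factor complex that binds interferon-stimulated response elements (ISREs) in their promoters. In the mouse, Oas1a and Oas1g encode active synthetases, Oas2 and Oas3 encode larger enzymes built from repeated OAS domains, Oasl2 encodes an active enzyme with ubiquitin-like domains, and Oasl1 encodes a protein without synthetase activity that holds back translation of the Irf7 mRNA. In the C57BL/6J reference, RefSeq lists Oas1b as a transcribed pseudogene.

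In the GRCm38.p6 annotation all of these genes lie on chromosome 5, in 2 clusters 5.79 Mb apart. Oasl2 (114896926 to 114912245) and Oasl1 (114923143 to 114937911) form the first. The second spans 191 kb (120730333 to 120921648) and holds 10 genes, among them Oas2, Oas3, Oas1b, Oas1g and Oas1a. Of those 10, only Oas1g and Oas2 had a probe detected on at least 2 arrays, whereas both Oasl genes did. The 5 further Oas1 copies in the cluster (Oas1c, Oas1d, Oas1e, Oas1f and Oas1h) had signals of 63.9 to 114.2 and were detected on 0 arrays.

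RefSeq promoter sequences (GRCm38.p6) were given for 5 of the 7 members, not for Oas1b and Oas2. The part of these sequences in the measured levels was not tested. Each is written 5′ to 3′ on the gene's own strand and ends at the base before the transcription start, except that of Oasl1, which ends at the base before the annotated gene. Capitals mark matches to the ISRE core, which is GAAA, 2 bases of any kind and GAAA again, on either strand.
Oas1g: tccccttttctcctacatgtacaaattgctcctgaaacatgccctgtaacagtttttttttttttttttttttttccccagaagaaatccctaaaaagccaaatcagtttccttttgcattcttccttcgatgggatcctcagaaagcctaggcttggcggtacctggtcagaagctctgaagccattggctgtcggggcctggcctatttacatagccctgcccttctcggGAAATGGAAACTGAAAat
Oas1a: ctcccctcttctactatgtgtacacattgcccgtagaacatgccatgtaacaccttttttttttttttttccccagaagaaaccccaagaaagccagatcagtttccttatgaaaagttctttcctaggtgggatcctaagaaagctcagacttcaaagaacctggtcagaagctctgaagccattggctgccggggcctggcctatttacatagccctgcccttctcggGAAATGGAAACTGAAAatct
Oas3: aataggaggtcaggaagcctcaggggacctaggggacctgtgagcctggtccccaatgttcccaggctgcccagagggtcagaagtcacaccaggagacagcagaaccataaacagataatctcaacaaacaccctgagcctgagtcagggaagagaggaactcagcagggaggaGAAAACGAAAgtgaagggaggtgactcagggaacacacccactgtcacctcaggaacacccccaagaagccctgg
Oasl1: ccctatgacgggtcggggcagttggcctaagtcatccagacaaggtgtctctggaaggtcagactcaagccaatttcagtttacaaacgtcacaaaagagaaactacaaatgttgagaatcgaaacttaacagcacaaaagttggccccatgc
Oasl2: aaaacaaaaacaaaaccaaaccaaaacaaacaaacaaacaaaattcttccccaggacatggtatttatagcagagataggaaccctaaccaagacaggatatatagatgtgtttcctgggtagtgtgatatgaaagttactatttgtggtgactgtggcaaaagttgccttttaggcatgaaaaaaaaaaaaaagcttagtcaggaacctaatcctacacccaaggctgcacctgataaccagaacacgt
These stretches are chr5:120887614-120887863 (minus strand), chr5:120907526-120907775 (minus), chr5:120777660-120777909 (minus), chr5:114922990-114923142 (plus) and chr5:114896684-114896933 (plus).

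Windows of 300 bases were searched, 250 before and 50 after the start. The Oas1g window held 2 ISRE matches, GAAATGGAAA and GAAACTGAAA, which overlap each other and begin 18 and 12 bases before the start. The Oas1a window held the same 2 matches, beginning 20 and 14 bases before the start, and the Oas3 window held GAAAACGAAA, beginning 75 bases before it. The Oasl1 and Oasl2 windows held no match, which says only that these letters are absent from those windows. Of 32851 promoter windows in the RefSeq table, 3.44% held at least 1 match. The gamma-activated sequence motif TTCNNNGAA occurred in the Oas1a window only among these 5 (8.3% of all windows), and the NF-kB pattern (GGG, 2 bases of any kind, then TTTCC), searched on both strands, occurred in 0 of the 5 (1.63% of all windows). The windows of Oas1a and Oas1g were identical at 85.3% of aligned positions, against 45.1% to 50.6% for the other pairs. Oas1a and Oas1g are close copies, so a probe of either may bind transcripts of both, and their separate levels are uncertain.

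Of the 17 OAS probes, 8 were detected on at least 2 of the 6 arrays and 9 were detected on 0. A probe counted as detected where its deposited detection p-value was below 0.01. The 9 undetected probes had signals of 61.3 to 107.9, beside array medians over all probes of 90.2 to 97.4, and their lowest detection p-value was 0.0107. They were the only probe of Oas1a, both probes of Oas1b, both probes of Oas3, 3 of the 5 Oas1g probes and 1 of the 3 Oasl2 probes. Oas1a, Oas1b and Oas3 therefore had no measurable level in any group, and no comparison was made for them.

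**Figure D1:**
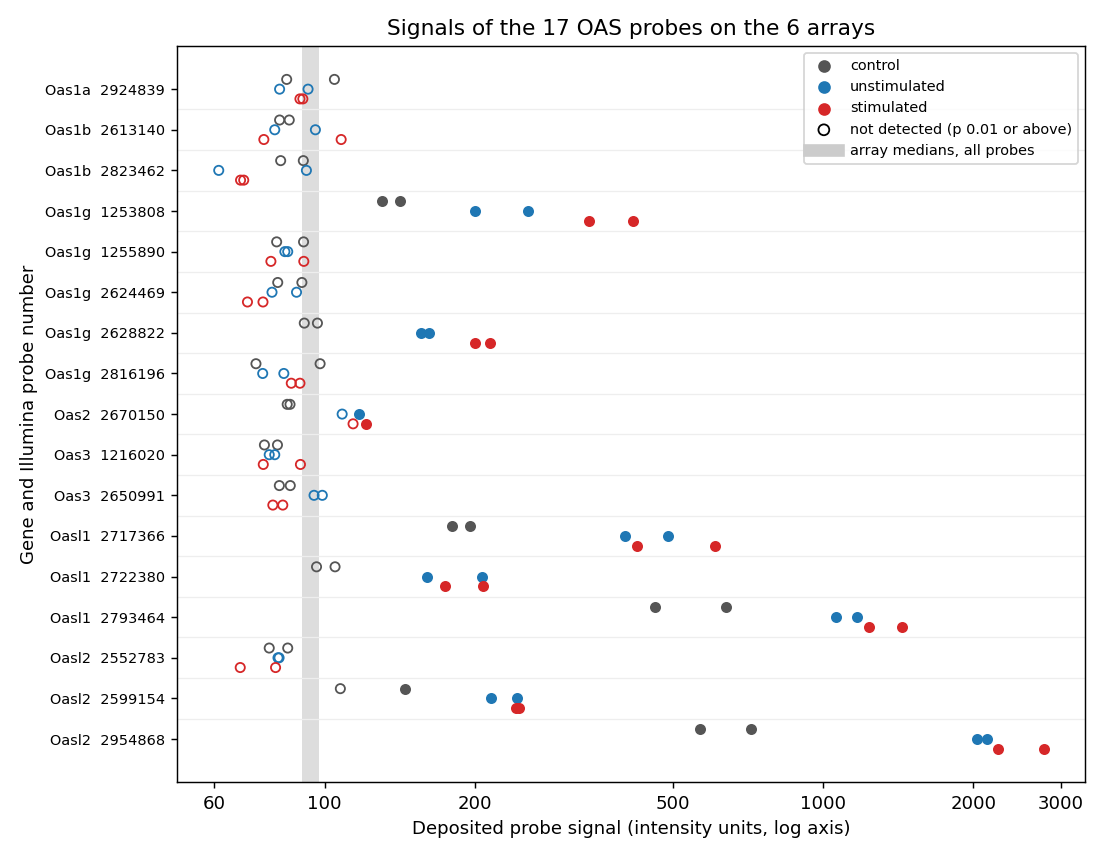
Deposited signal of each of the 17 OAS probes on each array (log axis), with open circles where the probe was not detected and a grey band for the array medians of all probes (90.2 to 97.4). The control arrays lie to the left of the starved arrays for the 8 detected probes, and the other 9 probes lie between 61.3 and 107.9 in every group.

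Oas1g, Oasl1 and Oasl2 were each detected on all 6 arrays by their main probe, the detected probe with the highest mean. Oas2 was detected on only 1 unstimulated and 1 stimulated array, so it entered the tests through the starved groups alone, which favours an estimate above 0. The label colon carcinoma was checked against markers: of 8 epithelial genes (Epcam, Cdh1, Krt8, Krt18, Krt19, Krt20, Cdx2 and Vil1), 0 passed the detection filter, and no probe of them exceeded a signal of 126. Of 6 leukocyte markers with a probe, 0 passed either. Of 7 fibroblast markers 6 passed, Dcn, Pdgfra, Pdgfrb and Col3a1 among them on all 6 arrays.

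The OAS genes that could be measured were higher after serum starvation. In unstimulated against control cells, Oas1g, Oasl1 and Oasl2 each rose, by 2.22-fold to 3.56-fold. These 3, detected on all 6 arrays, were called higher (limma, Benjamini-Hochberg adjusted p below 0.05), beside 17.1% of all 8909 tested genes, and 13.7% of all genes were called lower. Both unstimulated arrays lay above both control arrays for these 3 genes, as for 34.7% of all genes. Oas2 was called too, but it was not detected in control cells and is left out of these counts.

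Oasl2, the active OAS-like enzyme, gave signals of 565.5 and 715.8 in control, 2134.4 and 2037 in unstimulated, and 2240.7 and 2769 in stimulated cells on its main probe (ILMN_2954868). Every starved array lay above both control arrays. After background correction and normalization, Oasl2 rose 3.56-fold from control to unstimulated (1.83 ± 0.14 SE on the log2 scale, 2 arrays in each group, 95% interval 2.86 to 4.44-fold, limma adjusted p = 6.87e-05). It ranked 78th of 8909 genes by log2 fold change. Its second detected probe (ILMN_2599154) had signals of 107.5 and 145.1 in control and 215.7 to 245.4 in the 4 starved arrays, was detected on 1 of 2 control arrays, and gave 1.59 ± 0.24 on the log2 scale. The remaining Oasl2 probe (ILMN_2552783) was not detected, with signals of 67.7 to 84.3.

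Oas1g, an active OAS1 synthetase, gave signals of 141.5 and 130.6 in control, 255.8 and 200.2 in unstimulated, and 339.3 and 416.3 in stimulated cells on its main probe (ILMN_1253808). The 3 groups did not overlap. From control to unstimulated cells it rose 2.34-fold (1.23 ± 0.20 on the log2 scale, 95% interval 1.70 to 3.21-fold, limma adjusted p = 0.00287). Its second detected probe (ILMN_2628822) was not detected in control cells (91 and 96.7) and had signals of 156.1 and 162.2 in unstimulated and 199.8 and 215 in stimulated cells. That probe, which met the filter through the starved arrays alone, was at least 1.71-fold higher in unstimulated than in control cells, the starved mean set against the lowest detected signal of each control array. The remaining 3 Oas1g probes had signals of 70 to 97.9 in all groups, so the probes annotated to this gene disagree, and probe sequences were not used here.

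Oasl1, the OAS-like protein without synthetase activity, gave signals of 459.3 and 639.7 in control, 1062.6 and 1170.2 in unstimulated, and 1435.7 and 1234.4 in stimulated cells on its main probe (ILMN_2793464). The 3 groups did not overlap. It rose 2.22-fold from control to unstimulated cells (1.15 ± 0.20 on the log2 scale, 95% interval 1.63 to 3.02-fold, limma adjusted p = 0.00342). Both other Oasl1 probes were also called higher when all 14157 detected probes were tested, of which 13.9% were called higher. ILMN_2717366 gave 1.64 ± 0.18 on the log2 scale (signals of 180.4 and 195.2 in control against 487.4 and 400.1), and ILMN_2722380, undetected on both control arrays, was at least 2.15-fold higher.

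Oas2, a larger enzyme with repeated OAS domains, stayed close to background. Its signals were 84.1 and 85.2 in control, 117.2 and 108.4 in unstimulated, and 121.1 and 114 in stimulated cells. Its detection p-value was below 0.01 on unstimulated replicate 1 (0.00855) and stimulated replicate 1 (0.00214) and above it on the other 4 arrays. The starved arrays lay above the control arrays, and the test called a rise in unstimulated cells (limma adjusted p = 0.00587), but no fold is given because the unstimulated mean lay below the lowest detected signals of the control arrays.

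S100A8/A9 treatment was compared with starvation alone for differences beyond the starvation response, a comparison that may also hold 6 h more of culture. Here 0 of the 4 tested OAS genes were called, beside 0.0786% of 8909 genes, while all 4 estimates lay above 0. Oas1g had the largest estimate, 2.20-fold (1.14 ± 0.20 on the log2 scale, 95% interval 1.60 to 3.03-fold), ranking 9th of 8909 genes by log2 fold change. It did not pass the test (limma adjusted p = 0.106). This call depended on the processing: with a normexp offset of 50, the constant added after background correction, in place of 16, Oas1g passed (0.98 on the log2 scale, limma adjusted p = 0.0056), as it did without background correction (0.86, adjusted p = 0.00163) and among genes detected on all 6 arrays (adjusted p = 0.0392). Its second detected probe gave 0.81 ± 0.16 with both stimulated arrays above both unstimulated ones (limma adjusted p = 0.182 over all detected probes, of which 0.0565% were called higher).

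The other 3 estimates for S100A8/A9 were smaller. Oasl2 was at 0.44 ± 0.14 on the log2 scale (95% interval 1.09 to 1.69-fold, limma adjusted p = 0.421). Oasl1 was at 0.43 ± 0.20 (0.991 to 1.84-fold, adjusted p = 0.62) and Oas2 at 0.36 ± 0.16 (1.00 to 1.64-fold, adjusted p = 0.601). These intervals reach up to 1.64 to 1.84-fold, so the data do not show that Oasl1, Oasl2 and Oas2 were unaffected. Of the 4 genes, 3 (Oas1g, Oasl2 and Oas2) had an unadjusted p below 0.05 with a higher level in stimulated cells, beside 3.79% of all genes. On the normalized log2 scale both stimulated arrays lay above both unstimulated arrays for the main probes of all 4, which 18.5% of all genes also showed; the deposited signals of Oas2 overlapped. The Oasl1 estimate depended on which stimulated array was used, at 0.19 without stimulated replicate 1 and 0.67 without stimulated replicate 2.

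**Figure D2:**
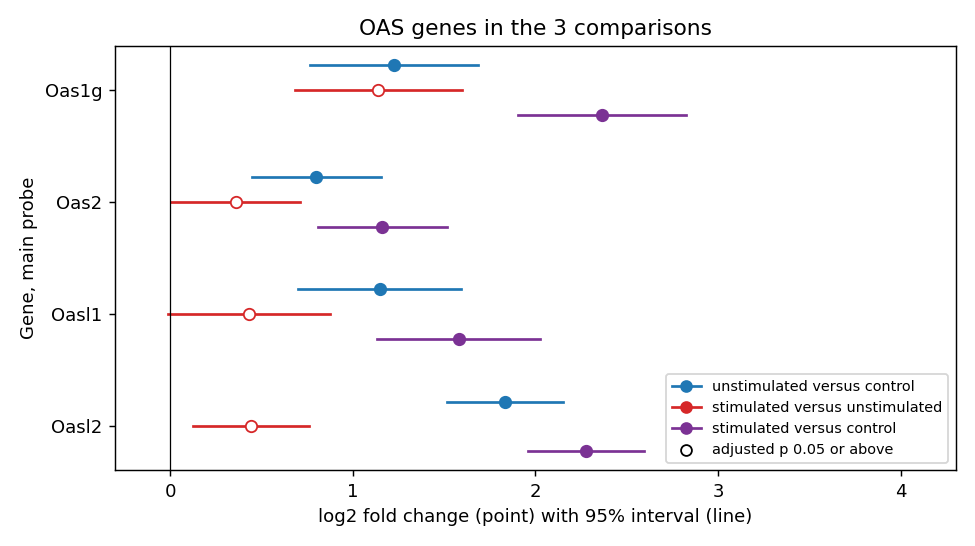
The log2 fold change (point) and its 95% interval (line) of the 4 tested OAS genes in the 3 comparisons, with open points where the adjusted p was 0.05 or above. Oas1g, Oasl1 and Oasl2 rose against control in both starved groups, and the S100A8/A9 step is largest for Oas1g (1.14). The Oas2 values against control are fitted values of a gene not detected there.

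Stimulated cells were also compared with control cells, from which they differ in both serum and S100A8/A9. Oas1g rose 5.15-fold (2.37 ± 0.20 on the log2 scale, limma adjusted p = 0.000106), a size that depended on background correction, since it was 2.98-fold (1.57) without it, and Oasl2 4.84-fold (2.28 ± 0.14, adjusted p = 1.84e-05). Oasl1 rose 2.99-fold (1.58 ± 0.20, adjusted p = 0.000782). Oas2 was at least 1.07-fold higher than its bound in control cells (adjusted p = 0.00111). Of all genes, 15.9% were called higher and 13.2% lower. The stimulated arrays lay above the control arrays for the 3 genes detected on all 6 arrays, as for 32.8% of all genes. This comparison shares its control arrays with the starvation comparison and its stimulated arrays with the S100A8/A9 comparison, so the 3 sets of values are not independent. In each of the 4 genes the order of the group means was control, unstimulated, stimulated, and the step between the last 2 did not pass the test in any of them. The estimates of Oas1g were 1.14 with S100A8/A9, not called, and 1.23 with starvation (0.86 and 0.71 without background correction), and those of Oasl2 were 0.44, not called, and 1.83; whether the genes differ in this was not tested.

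Over the 6 arrays the main probes of the 3 genes detected on all of them correlated pairwise at r = 0.888 to 0.962. This is a description over arrays that share 1 normalization and differ mostly between groups. Pairs with Oas2 gave 0.943 to 0.982, but Oas2 was detected on only 2 arrays, both starved, and lay at background in control cells. The genes whose centred log2 values lay nearest to the mean profile of the 4 tested OAS genes, Oas2 included, were sought among all tested genes. The measure was Euclidean distance over the 6 arrays. They were Nod1, a sensor of bacterial cell wall fragments (distance 0.233, r = 0.997), Adamts7, a secreted metalloprotease (0.259), Sema3f, a secreted semaphorin (0.297), Mmp9, a gelatinase (0.301), Osmr, an oncostatin M receptor subunit (0.335), and C130026I21Rik (0.367). The 4 OAS genes themselves lay 0.465 (Oasl1) to 0.763 (Oas1g) from their own mean. Nod1 rose by 1.10 on the log2 scale with starvation (limma adjusted p = 0.000885) and was at 0.58 with S100A8/A9 (adjusted p = 0.262).

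**Figure D3:**
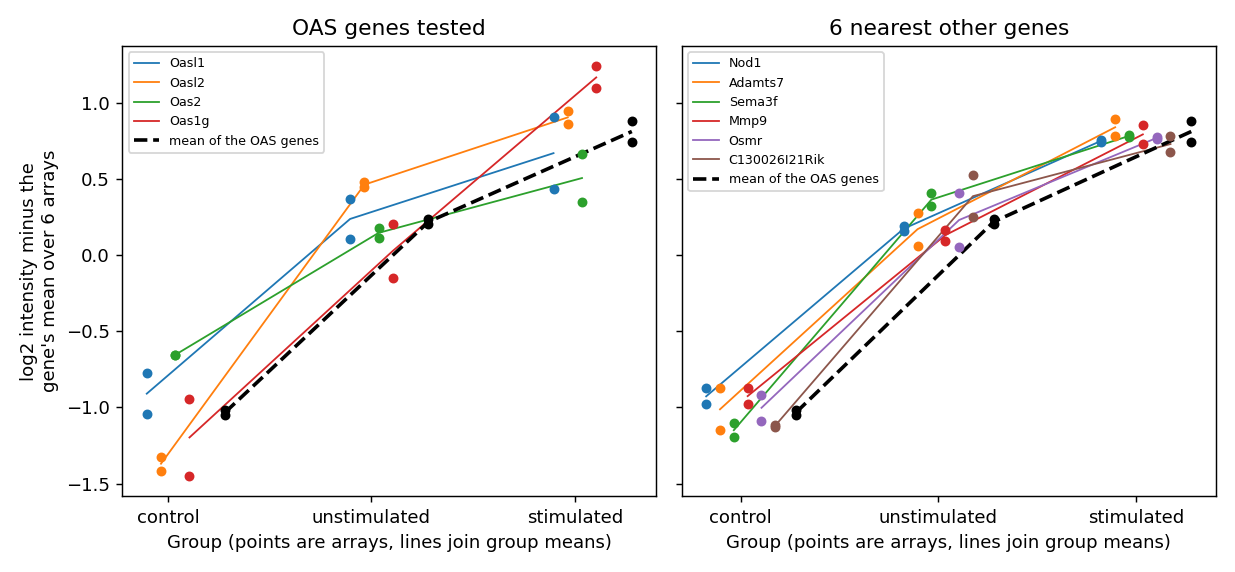
Log2 intensity of each gene minus its mean over the 6 arrays, by group, for the 4 tested OAS genes and for the 6 genes nearest to their mean (dashed), with points for arrays and lines joining group means. Oas1g has the highest stimulated values among the 4 (1.10 and 1.24), and the 6 other genes lie 0.233 to 0.367 from the mean profile. Oas2, which enters that mean, was not detected in control cells.

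Among genes of the pathway around OAS, 10 double-stranded RNA sensor genes were tested. In unstimulated against control cells 6 were called higher, 4 were not called and 0 were called lower, beside 17.1% higher and 13.7% lower over all genes (median log2 fold change 0.62, against -0.00 over all 8909 genes). Of the 6, Tlr3, Ifih1 and Ticam1 were not detected in control cells and met the filter only through starved arrays. The count and the median therefore favour values above 0. Zbp1, among those not called, had probes that disagree. Its main probe had log2 means of 6.40 in control and 6.26 in unstimulated cells. Another Zbp1 probe (ILMN_1218547), undetected in control cells, had log2 means of 4.72 and 6.61. Dhx58, a helicase that tunes RIG-I-like signalling, rose by 1.59 ± 0.19 on the log2 scale and Eif2ak2, the kinase PKR that stops translation on double-stranded RNA, by 1.28 ± 0.18. Tlr3, an endosomal sensor, and Ifih1, the cytosolic sensor MDA5, were undetected on both control arrays. Tlr3 was at least 1.38-fold and Ifih1 at least 1.36-fold higher in unstimulated cells; both entered the test through the starved arrays, which favours an estimate above 0. The limma adjusted p of these 4 ran from 0.000627 to 0.00492. With S100A8/A9 0 of the 10 were called (median 0.09). Against control 6 were called higher in stimulated cells, beside 15.9% of all genes, and the same limit holds for that count.

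Of 5 interferon transcription factor genes tested, 3 rose with starvation and 0 fell, beside the same 17.1% and 13.7% of all genes (median 0.62): Stat2 by 1.03 ± 0.21 on the log2 scale, Irf1 by 0.85 ± 0.15 and Irf9 by 0.62 ± 0.14 (limma adjusted p 0.00423 to 0.0112). Irf3 was at -0.13 and Irf5 at -0.47, neither called. Irf9 gave signals of 185.9 and 203 in control, 280.9 and 247.3 in unstimulated, and 386.4 and 440.9 in stimulated cells, with no overlap between groups. With S100A8/A9 it was at 0.99 ± 0.14 (adjusted p = 0.0527), and the other 4 factors lay between 0.10 and 0.32. Of 4 feedback genes, 3 were called higher with starvation, beside 17.1% of all genes, but Usp18 and Socs1 among them were not detected in control cells and met the filter only through starved arrays, so the count and the median of 1.57 favour values above 0. Isg15, a ubiquitin-like protein, rose by 2.13 ± 0.19. The main probe of Usp18, which removes Isg15 and damps the interferon receptor, was undetected in control. It was at least 3.65-fold higher in unstimulated cells (limma adjusted p = 3.38e-05). Another Usp18 probe (ILMN_3054914) stayed near background. Its signals were 106.4 and 92.1 in control, 122.8 and 111 in unstimulated, and 121 and 123.4 in stimulated cells. Socs1, a JAK inhibitor, was detected on the unstimulated arrays alone and was at least 1.32-fold higher there than in control cells, and with S100A8/A9 it was not detected and not called (adjusted p = 0.262).

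Of 7 receptor and kinase genes tested, 3 were called higher with starvation and 0 lower, beside 17.1% and 13.7% of all genes (median 0.49). On their main probes Tyk2, a receptor-bound kinase, was at 1.33 ± 0.15, Ifngr1 at 0.59 ± 0.16 and Jak2 at 0.49 ± 0.16 (limma adjusted p 0.000515 to 0.0446). A second Jak2 probe (ILMN_3115162), detected on all 6 arrays, changed less. Its log2 means were 8.84 in control, 8.98 in unstimulated and 8.95 in stimulated cells. A second tested Tyk2 probe (ILMN_2455699), detected on 2 starved arrays alone, also changed less. Its log2 means were 5.01, 5.43 and 5.49 in these groups. Ifngr2 encodes an interferon gamma receptor chain. In stimulated against control cells its main probe fell by 0.82 on the log2 scale (limma adjusted p = 0.0187). The other Ifngr2 probes, also detected on all 6 arrays, changed less, so the probes of this gene disagree. Their log2 means were 7.38 in control and 7.31 in stimulated cells (ILMN_1258300), and 7.74 and 7.68 (ILMN_2592709). No interferon ligand was detected on all arrays. Signals of the 9 ligands with a probe ran from 64.4 to 131.3, and of them only Ifna1 met the filter, on 1 control and 1 stimulated array. Abce1, which takes part in ribosome recycling, fell by 0.61 on the log2 scale with starvation (limma adjusted p = 0.0449), with signals of 810 and 1429 in control, 760.7 and 678.6 in unstimulated, and 608.6 and 701.4 in stimulated cells. Pde12, a phosphodiesterase that degrades the adenylate chains, was at -0.43 ± 0.17 (adjusted p = 0.0861). Both were near 0 with S100A8/A9 (0.00 and -0.07).

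In stimulated against control cells, where 15.9% of all genes were called higher and 13.2% lower, these lists held the following calls, with at most 4 genes named per list. Among feedback genes, Usp18 was at least 6.34-fold higher than its bound in control on its main probe. Isg15 rose by 2.48 ± 0.19 and Socs3, a cytokine signalling inhibitor, by 0.64 ± 0.15 on the log2 scale (3 of 4 higher, 0 lower). Among sensors, 6 of 10 were called higher and 0 lower. Of these, Dhx58 rose by 1.76 ± 0.19, Eif2ak2 by 1.45 ± 0.18 and Ddx58, the cytosolic sensor RIG-I, by 0.87 ± 0.14. Tlr3, undetected in control cells, was at least 1.02-fold higher. Of the transcription factor genes, 3 of 5 rose, Irf9 by 1.61 ± 0.14, Stat2 by 1.34 ± 0.21 and Irf1 by 1.02 ± 0.15. Tyk2 rose by 1.45 ± 0.15 and Jak2 by 0.60 ± 0.16, and with Ifngr2 these were the 3 calls among 7 receptor and kinase genes. These are main probe values, and other detected probes of Tyk2, Jak2 and Ifngr2 changed less, as given above. Abce1 fell by 0.61 (limma adjusted p = 0.0469). The limma adjusted p of these genes called higher ran from 6.88e-06 (Usp18) to 0.0217 (Jak2).

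**Figure D4:**
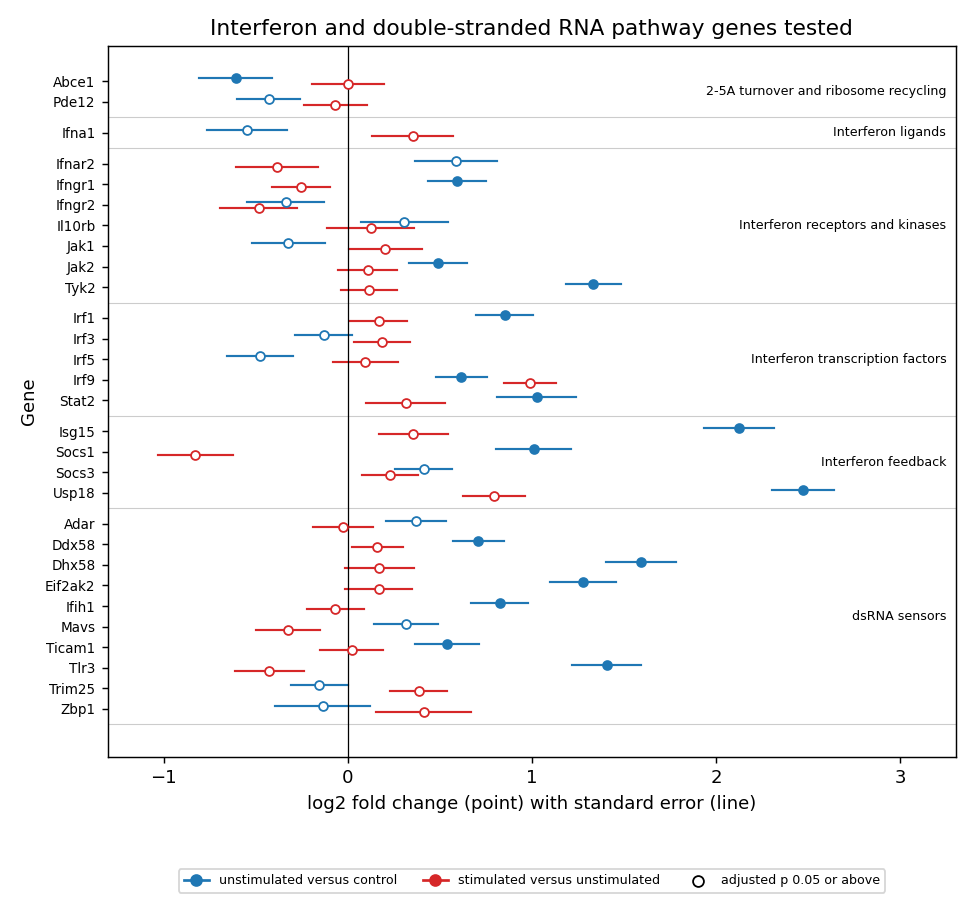
Log2 fold change (point) and standard error (line) of the pathway genes tested, for starvation (blue) and for S100A8/A9 (red), with open points where the adjusted p was 0.05 or above. Members of the sensor, transcription factor, receptor and feedback lists were called higher with starvation, Abce1 was called lower, and the S100A8/A9 points are all open, with Irf9 at 0.99. Points of Usp18, Socs1, Tlr3, Ifih1 and Ticam1 are fitted values of genes not detected in control cells, and Socs1 was not detected in stimulated cells either.

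Fibroblast markers also differed between control and starved cells. Of 6 tested, 5 were called higher and 1 (Col1a2) lower with starvation, beside 17.1% and 13.7% of all genes, and Col1a1 among the 5 was not detected in control cells. With all 7 listed, the summed signal of the list was 3222 and 3870 in control, 9266 and 10260 in unstimulated, and 9374 and 11327 in stimulated arrays. Their part in the OAS result was not tested. The summed signal of the leukocyte markers was 519.5 to 525.1 in control, 560.9 to 561.9 in unstimulated and 493.3 to 547.9 in stimulated arrays, and no probe of them exceeded 110.9, with Ptprc, Adgre1, Lyz2, Itgam and Csf1r detected on 0 arrays and Cd3e on 1. In bulk RNA, fewer cells of a kind and less RNA per cell cannot be told apart.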

How the data were processed

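Total RNA from 6 MC38 samples was labelled as biotinylated cRNA and measured on Illumina arrays, per the labels' protocols. The deposited probe intensities were not normalized and not background-subtracted. A detection p-value per probe and array was deposited beside them. The deposited log2 table equalled quantile-normalized log2 intensities to within 0.00203. No source used here names the software that summarised the beads.

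Normexp background correction (limma 3.58.1 under R 4.3.3), with an offset of 16 and the negative controls estimated through the detection p-values, was followed by quantile normalization and log2. Probes with 1 gene symbol and a detection p-value below 0.01 on at least 2 of 6 arrays were tested, 14157 in all, 1 per gene (the highest mean), which gave 8909 genes. limma fitted group means over the 6 arrays jointly (3 residual degrees of freedom, 6.00 prior), with Benjamini-Hochberg adjustment over the 8909 genes. Other probes come from the same fit over all detected probes. Bounds replace folds where a group had no detection. Genes named beyond the 7 members are up to 4 called members of each pathway list per comparison by size of change, the 6 nearest profiles, and genes whose values bear directly on a result. Ddx58 was listed under its current name Rigi. The steps were tested on simulated data.

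Groups come from the titles. The labels do not say that replicates are separate cultures, so the p-values reflect the spread of these arrays alone, possibly technical. With 2 arrays per group, their number limits the precision. Members and lists were chosen with earlier results of these data known. Alternatives changed background correction, offset, scaling, filter, probe choice, samples, replicate block and single arrays.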

Additional observations from a re-analysis of the deposited data

How the results depend on the processing

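Results were recomputed under 9 other processing settings and without each of the 6 arrays in turn. The settings for filter, every detected probe, only the 4 arrays compared and replicate block reused the main normalized values. Their estimates equalled the main ones, so only their adjusted p could change. The deposited log2 table nearly repeats the setting without background correction (values within 0.00203). All 171 single gene values of the 4 tested OAS genes kept the direction of the reported value, and 167 stayed on the same side of the threshold. The other 4 were all Oas1g with S100A8/A9, so that 1 OAS gene was called in place of 0 without background correction, with a normexp offset of 50, with the authors' deposited log2 table and with genes detected on all 6 arrays (limma adjusted p 0.00163 to 0.0392). Over all its alternatives the adjusted p of Oas1g in that comparison reached 0.277 among processing settings and was 0.0801 to 0.540 without single arrays, where 0 OAS genes were called each time. With starvation and in stimulated against control cells, Oas1g, Oasl1 and Oasl2 were called under every processing setting. Under the main setting 1527 of 8909 genes were called higher with starvation and 1417 in stimulated against control cells. Oas2 was also called under each processing setting that tested it, but it was not detected in control cells and met the main filter through starved arrays alone. The fold of Oas1g depended on background correction: without it, the value with starvation was 0.71 in place of 1.23 on the log2 scale, and in stimulated against control cells 1.57 in place of 2.37.

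The replicate numbers did not pair the arrays (correlations of their deviations from the group means -0.040 to -0.00881). With the replicate block 0, 4 and 4 OAS genes were called, as without it, beside 7, 1457 and 1340 of 8909 genes called higher. The 4 include Oas2, which was not detected in control cells. Median scaling moved the median of all genes with S100A8/A9 to -0.13 on the log2 scale, where Oas1g was at 1.02, and 42.6% in place of 54.7% of calls were then higher in stimulated against control cells. Over all genes, calls with S100A8/A9 numbered 7, and 44 without background correction or with the deposited table, 36 with offset 50, 17 and 15 with detection on all arrays and median scaling, and 4 without unstimulated or stimulated replicate 1. With starvation 2746 genes were called, and 1366 to 1736 without a control or unstimulated array; in stimulated against control cells 2589, and 1554 to 1814 without a control or stimulated array, where only a single array stood for its group.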
